A study of Mus musculus with 19 samples.

Results

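The 39 protein-coding HOX genes of the mouse were followed through RNA-seq of mammary glands and mammary tumors. Members were the genes of a table of 46078 genes whose identifier maps to a protein-coding gene named Hoxa, Hoxb, Hoxc or Hoxd with a number, and every one of the 39 annotated members was in the table. HoxA (11 genes, chromosome 6, minus strand), HoxB (10 genes, chromosome 11, 96194316-96368256, plus strand), HoxC (9 genes, chromosome 15, 102921103-103036852, plus strand) and HoxD (9 genes, chromosome 2, 74668310-74765142, plus strand) are the 4 clusters, in GRCm38 coordinates. The 19 libraries came from 5 groups. MGWT was gland from wild type mice (n = 3). MGN was gland from mice with the MMTV-neu transgene, which drives wild-type ERBB2 in mammary epithelium, and fibroblasts with wild-type p53 (n = 4). Of these, replicate 1 was MMTV-neu;Fsp-Cre and replicates 2, 3 and 4 were MMTV-neu;p53wm-R172H/+ without Cre. MGNP (n = 4) was gland from MMTV-neu;p53wm-R172H/+;Fsp-Cre mice, in which a Cre expressed in fibroblasts turns the conditional wild-type allele into one that makes p53 R172H. TN (n = 4, all MMTV-neu;Fsp-Cre) and TNP (n = 4, with the genotype of MGNP) were tumors. By the study's account, MGN and MGNP glands carried no malignant lesion but came from tumor-bearing females of a mixed FVB/C57/BALB/c background, and MGWT mice were age-matched. Ages and the body position of each gland are not given in the sources used here. Whole tissue was sequenced, so fewer cells of a type and less RNA per cell cannot be told apart.

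HOX genes encode homeodomain transcription factors, and their order along a cluster follows the order of their use along the body axis, from paralogue group 1 at the head end to group 13 at the tail end. Adult fibroblasts, adipocytes and epithelia keep part of this code, so that the HOX genes a tissue uses carry a record of its position in the body. In the mammary gland, Hoxc6 and Hoxc8 are known from placode formation and ductal growth, and the group 9 genes Hoxa9, Hoxb9 and Hoxd9 are together needed for the gland to expand in pregnancy. Below, paralogue groups 1 to 3 are called anterior, 4 to 8 central and 9 to 13 posterior.

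The level of HoxA genes in TN tumors broke off between Hoxa7 and Hoxa9, and the promoters on both sides of that split are shown for this reason, with that of Hoxd8, the member with the highest level. Each line is 150 bases upstream of a RefSeq start in GRCm38.p6, on the strand of the gene, with CG dinucleotides in capitals because these are the sites of DNA methylation. The Hoxa6 stretch lies farther upstream than the others, because the GENCODE exon of Hoxa6 begins before its RefSeq start, and all 5 stretches share 0 bases with an annotated exon. The Hoxa9 stretch precedes a RefSeq start inside the GENCODE gene, and of Hoxa10 the outer of its RefSeq starts is shown.
Hoxa5, chr6:52204588-52204737, minus strand: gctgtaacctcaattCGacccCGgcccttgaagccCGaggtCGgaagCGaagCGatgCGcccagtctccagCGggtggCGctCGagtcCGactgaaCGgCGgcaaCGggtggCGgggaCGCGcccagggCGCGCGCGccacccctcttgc
Hoxa6, chr6:52208723-52208872, minus strand: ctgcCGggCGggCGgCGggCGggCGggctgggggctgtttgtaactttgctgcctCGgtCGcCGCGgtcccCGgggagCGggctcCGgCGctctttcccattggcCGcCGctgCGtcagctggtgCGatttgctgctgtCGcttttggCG
Hoxa9, chr6:52227371-52227520, minus strand: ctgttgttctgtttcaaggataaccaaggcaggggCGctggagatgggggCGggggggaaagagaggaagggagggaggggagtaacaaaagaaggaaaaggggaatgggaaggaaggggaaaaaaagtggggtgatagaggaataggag
Hoxa10, chr6:52240855-52241004, minus strand: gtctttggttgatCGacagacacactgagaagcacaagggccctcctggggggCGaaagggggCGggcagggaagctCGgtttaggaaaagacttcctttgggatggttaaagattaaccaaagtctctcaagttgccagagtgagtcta
Hoxd8, chr2:74704465-74704614, plus strand: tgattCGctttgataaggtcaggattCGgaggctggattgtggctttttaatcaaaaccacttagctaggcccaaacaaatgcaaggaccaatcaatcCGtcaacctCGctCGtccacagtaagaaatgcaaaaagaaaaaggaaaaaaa

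The Hoxa5 and Hoxa6 stretches hold 21 and 20 CG dinucleotides, against 2 for Hoxa9, 4 for Hoxa10 and 5 for Hoxd8. These stretches do not stand for the whole of each side. In the full RefSeq windows, Hoxa2 and Hoxa7 held 9 CG each on the anterior side, beside 29 for Hoxa5 and 26 for Hoxa6. On the posterior side Hoxa9 held 4, Hoxa10 12 and, at its inner start, 21, Hoxa11 15 and Hoxa13 45. Over the full RefSeq windows, from 250 bases before a start to 50 after it, the 24 HOX promoters of 22 members held a median of 14.5 CG (4 to 45), beside a median of 7 (quartiles 3 and 20) over 32851 promoters. A CCAAT box, searched as CCAAT on both strands, lay in 15 of the 24 HOX windows (62.5%) and in 37.4% of all. The composite PBX-HOX motif TGATTGAT lay in 2 of 24 HOX windows and in 0.746% of all, TATAAA in 4 and 13.6%, and TGACG in 7 and 20.8%. These are letter matches in 1 fixed window, with no measure of binding or methylation in these samples.

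Before the levels are read, the tissue make-up of the groups has to be known. Summed normalized counts of 9 white adipocyte markers were 1986 to 2906 in MGWT, 314195 to 483189 in MGN, 167840 to 446321 in MGNP, 643 to 8252 in TN and 1024 to 2552 in TNP. Adipoq, the adipokine that defines fat cells, averaged 11.7 ± 10.98 (SD, n = 3) in MGWT and 40924 ± 4609 (SD, n = 4) in MGN, so this marker was nearly absent from the libraries labelled wild type gland. The 9 luminal markers summed to 127212 to 149130 in MGWT, 21661 to 36898 in MGN and 97646 to 181722 in TN. The 16 skeletal muscle markers summed to 28776 to 6399620 in MGNP, with replicates 2 and 4 highest, and to 4138 to 48031 in MGN. The 9 fibroblast markers summed to 147299 to 492787 in MGN and 68353 to 155011 in MGNP. Depth was 54677315 to 62645459 reads in MGWT and 20899152 to 27262440 in the other 16 libraries.

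The HOX genes in use were mostly those of paralogue groups 2 to 10. A set of 10 members never exceeded 3 reads in any library (Hoxa11, Hoxa13, Hoxb1, Hoxb13, Hoxc12, Hoxc13, Hoxd1, Hoxd11, Hoxd12 and Hoxd13), and 3 of them, Hoxc12, Hoxd12 and Hoxd13, had 0 reads in all 19. At this depth, 0 reads allow up to 3 per library. A mean of at least 10 normalized counts was reached by 25 members in MGWT, 28 in MGN and 26 in MGNP, against 13 in TN and 10 in TNP. The most posterior gene to reach 10 normalized counts was Hoxa10 in HoxA, Hoxb9 in HoxB and Hoxd10 in HoxD in all 11 gland libraries, and in HoxC it was Hoxc10 in 9 of them and Hoxc9 in MGNP replicates 2 and 4. In all TN libraries and in TNP replicates 2, 3 and 4 the HoxA cluster ended at Hoxa7 by the same measure. In TNP replicate 1 Hoxa10 just reached it, at 10.09 normalized counts.

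**Figure D1:**
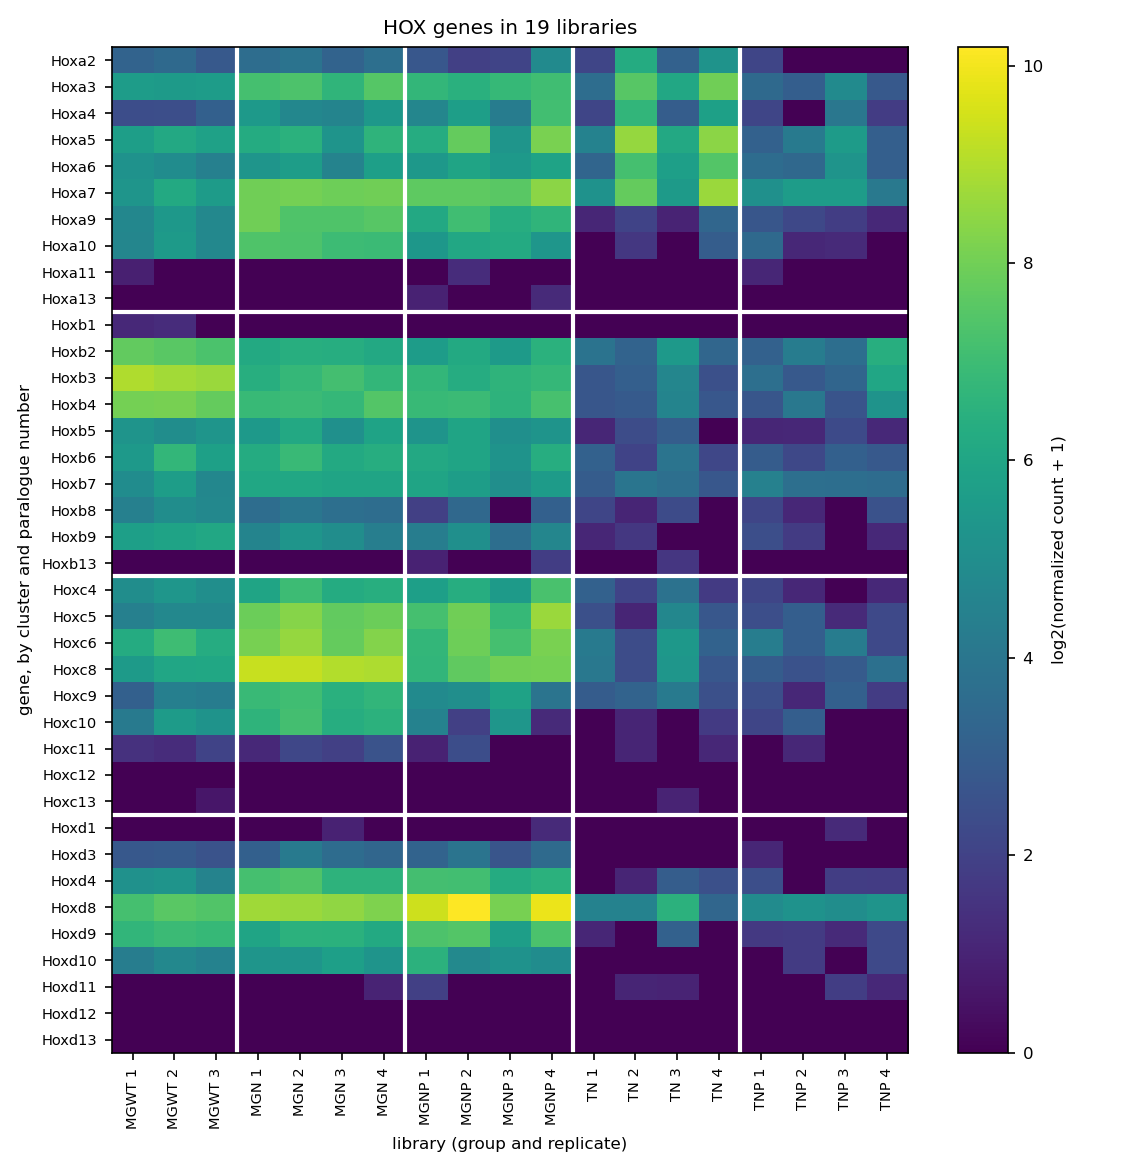
Color gives log2(normalized count + 1) of 38 of the HOX genes (rows, ordered by cluster and paralogue number) in each of the 19 libraries (columns, ordered by group). Genes of groups 11 to 13 are dark in every library, HoxB, HoxC and HoxD are darker in tumors than in glands, and Hoxa2 to Hoxa7 stay bright in TN replicates 2 and 4.

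Hoxd8, a gene of the central HoxD cluster, had the highest level per length over the 5 group means. Its normalized count per kb of exon was 61.7 ± 8.66 in MGWT (SD, n = 3), 136 ± 20.4 in MGN, 280 ± 140 in MGNP, 13.3 ± 13.9 in TN and 12.1 ± 1.39 in TNP (SD, n = 4 each). Hoxc8, which marks thoracic identity, was next and was highest in MGN, at 200 ± 26.3 per kb, beside 73.6 ± 26.4 in MGNP and 20.8 ± 4.06 in MGWT. Other members led in MGWT and TN. In MGWT these were Hoxb3 (104 ± 11.9 per kb) and Hoxb4 (98.1 ± 10.9), a regulator of blood stem cells, which did not differ beyond their spread. In TN they were Hoxa6 (110 ± 89.6) and Hoxa5 (109 ± 98.6), the latter known from lung and gland development, and their SDs were nearly as large as their means.

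The share of each cluster in the HOX level changed from group to group. In MGWT, HoxB made up 47.9 to 53.5% of the summed count per kb, but in MGN 14.8 to 17.9% and in MGNP 13.1 to 18.1%. HoxC was the largest part in MGN (39.7 to 43.4%), and HoxD reached 42.3 and 40.3% in MGNP replicates 1 and 2. In TN replicates 2 and 4, HoxA made up 94.2 and 96.0%, against 47.3 and 51.7% in replicates 1 and 3 and 18.3 to 67.7% in TNP. HOX genes together took 64.6 to 83.5 CPM (reads scaled to a common library total) in MGWT, 125 to 154 in MGN, 87.2 to 117 in MGNP and 8.04 to 11.6 in TNP. The TN libraries spread from 7.67 to 54.4, the low end being replicate 1 and the high end replicate 4.

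**Figure D2:**
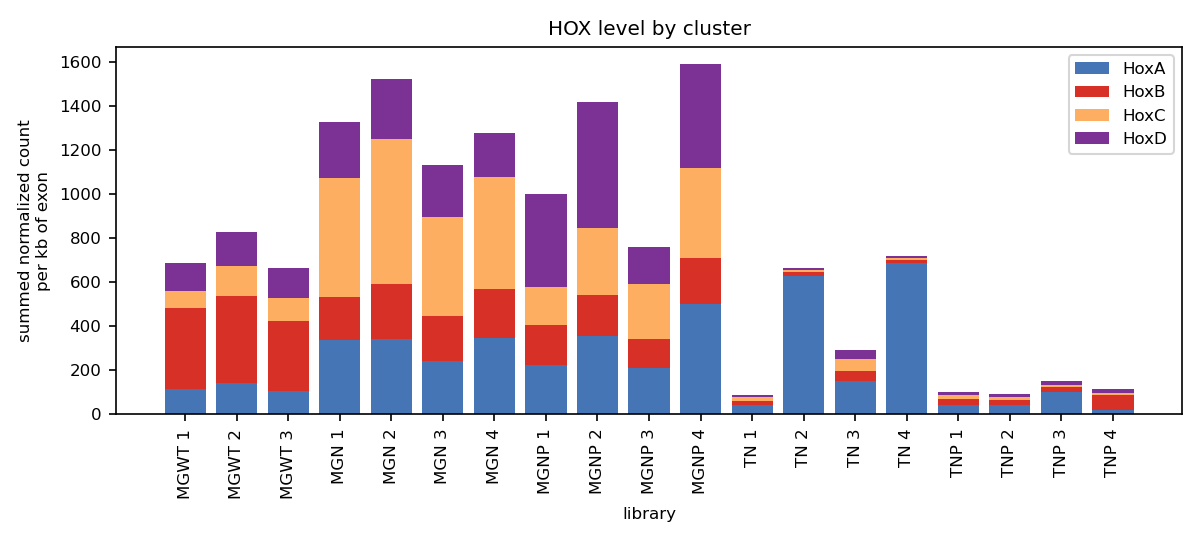
Bars give the summed normalized count per kb of exon of all HOX genes in each library, stacked by cluster. HoxB is the largest part in the MGWT libraries, HoxC in MGN, and HoxA alone makes up nearly the whole bar in TN replicates 2 and 4.

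To ask how tumors differ from glands when fibroblasts carry wild-type p53, TN was compared with MGN. All TN mice carried Fsp-Cre, but of MGN only replicate 1 did, so the groups also differed in Cre. Of 27 members that passed the filter on low counts, 20 fell in TN and 0 rose, where 22.3% of all 17950 genes tested fell and 12.8% rose. Called here means at least a 2-fold difference and an adjusted p below 0.05 (limma on log2(normalized count + 1), Benjamini-Hochberg over all genes tested), and a fold on this scale understates the change of low genes. The TN and MGN libraries did not overlap for 20 members, against 49.2% of all genes. All 18 tested members of HoxB (8), HoxC (6) and HoxD (4) fell, with a median log2 difference of -3.56, -4.81 and -5.26. The median over the 27 members was -3.70, or -3.60 with the 3 members at the floor set to their bounds, beside -0.05 over all genes. The filter kept members that are high in 1 of the groups, so these counts are not counts over all 39. Markers of several cell types fell in the same comparison, 9 of 9 of white adipocytes (median log2 difference -8.55), 8 of 8 of basal epithelium (-3.74), 6 of 6 of endothelium (-2.24) and 7 of 9 of fibroblasts (-3.16), while 6 of 9 luminal markers rose and 2 fell. Summed basal markers were 10369 to 23968 in MGN and 1348 to 5056 in TN, and endothelial markers 15558 to 27587 and 3351 to 5677. Their part in the HOX differences was not tested.

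Hoxa10, Hoxc10 and Hoxa9 had the lowest fitted differences. Hoxa10, known from uterine receptivity, had 164, 160, 125 and 122 normalized counts in MGN replicates 1 to 4 and 0, 2.11, 0 and 7.003 in TN, a log2 difference of -5.99 (SE 0.66, adjusted p = 0.000232). Hoxa9, a regulator of blood progenitors, had 252, 167, 166 and 183.3 in MGN and 1.14, 3.16, 1.01 and 9.34 in TN (-5.69, SE 0.53, adjusted p = 0.000125). For both genes the highest tumor lay far below the lowest gland. Hoxc10, known from subcutaneous fat and sharing 8.70% of its exon bases with Hoxc5, had 96.8, 141, 79.8 and 91.7 in MGN and at most 3 reads in any TN library, with 0, 1.05, 0 and 2.33 normalized counts. Against the floor of 3 reads per library, it was at least 31.3-fold lower in TN. Hoxd10 was listed at 0 in all TN libraries and was at least 12.8-fold lower, and Hoxb9 at least 8.59-fold lower. The exact permutation test of a single gene cannot go below p = 0.0286 with 4 against 4 libraries, and it gave that value for each of these 5 genes. Groups that do not overlap always give this value, so it adds nothing to their lack of overlap.

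Members of high level in the gland fell too. Hoxc8 had 638, 620, 516 and 488 normalized counts in MGN and 15.9, 4.22, 40.4 and 5.84 in TN (log2 difference -5.48, SE 0.60, adjusted p = 0.00023). Hoxc5 went from 238, 324, 211 and 241 to 4.55, 1.05, 25.3 and 5.84, and Hoxc6 from 274, 378, 222 and 315 to 17.0, 4.22, 42.4 and 8.17. Hoxd8 had 427, 406, 357 and 301 in MGN and 21.6, 22.1, 92.9 and 9.34 in TN (-3.79, SE 0.59, adjusted p = 0.00106). Hoxb4 had 116, 123, 109 and 175 in MGN and 5.68, 6.32, 23.2 and 5.84 in TN (-3.77, SE 0.46, adjusted p = 0.000361). In each of these 5 genes TN replicate 3 was the highest tumor. That library also had the highest sum of the 9 fibroblast markers among TN (271298, against 30016 to 44201 in the other 3) and of the 9 white adipocyte markers (8252), and the part of these in its HOX values was not tested. Without TN replicate 3, 20 members fell.

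**Figure D3:**
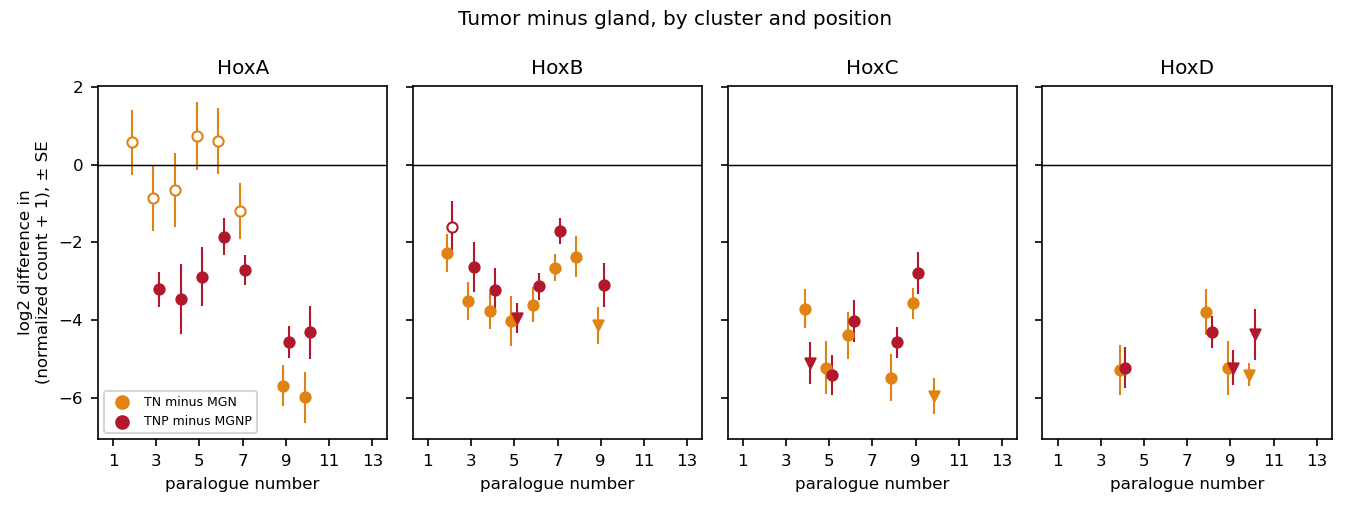
Points give the log2 difference between tumor and gland (TN minus MGN in orange, TNP minus MGNP in red) against the paralogue number in each cluster, with bars of 1 SE. Filled symbols were called, open circles were not, and triangles mark members with at most 3 reads in every tumor library, whose fitted value depends on the pseudocount. Hoxa2 to Hoxa7 lie near 0 for TN, while both HoxA posterior genes and nearly all points of the other clusters lie well below it.

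The anterior and central HoxA genes were the exception in TN. None of Hoxa2 to Hoxa7 was called, and their log2 differences from MGN ran from -1.20 (Hoxa7) to 0.75 (Hoxa5), with SEs of 0.72 to 0.96. The mean hid a wide spread among tumors. Hoxa5 had 21.6, 386, 69.7 and 340 normalized counts in TN replicates 1 to 4, beside 75.2, 90.8, 37.6 and 97.8 in MGN. Replicates 2 and 4 thus lay above every MGN gland, replicate 1 below every one, and the groups overlapped.

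The other genes of this stretch were also highest in replicates 2 and 4. Hoxa6 had 9.09, 144, 52.5 and 177 in TN against 38.2, 50.6, 22.5 and 53.6 in MGN. Hoxa7 had 35.2, 219, 46.5 and 406 in TN against 255, 267, 243 and 254, so that only replicate 4 exceeded the glands. In these 2 tumors Hoxa3 had 185 and 248.6, and Hoxa4 104 and 54.9. Summed over Hoxa2 to Hoxa7, the count per kb was 40.1, 587, 134 and 621 in the TN libraries and 167 to 266 in MGN. Over the posterior HoxA genes it was 0.181 to 3.82 in TN and 68.0 to 95.4 in MGN, and it was as low in TNP (0.224 to 4.58). The level of Hoxa2 to Hoxa7 thus varied over a wide range among TN tumors, and at every point of that range Hoxa9 and Hoxa10 were near 0. Their few reads were also most in replicates 2 and 4, with 1, 3, 1 and 8 for Hoxa9 and 0, 2, 0 and 6 for Hoxa10.

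TN replicates 2 and 4 had the fewest counts of the 16 skeletal muscle markers among TN (698 and 642, against 9265 and 52429) and of the 9 fibroblast markers (30016 and 39179). Their 9 luminal markers summed to 181722 and 125291, the highest among TN, and the part of these in the HoxA values was not tested. The calls in this stretch rested on single libraries. Without TN replicate 1, 2 members were called higher in TN, Hoxa6 among them (log2 difference 1.47, adjusted p = 0.0404). Without TN replicate 4, Hoxa7 was called lower (-1.82, adjusted p = 0.035). Hoxa3 and Hoxa4 overlap antisense RNAs of the cluster on 25.4 and 16% of their exon bases, and Hoxa7 on 20.4%. The sources do not say if strand entered the counting. Hoxa5, Hoxa6 and Hoxa10 share no exon base with another gene.

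**Figure D4:**
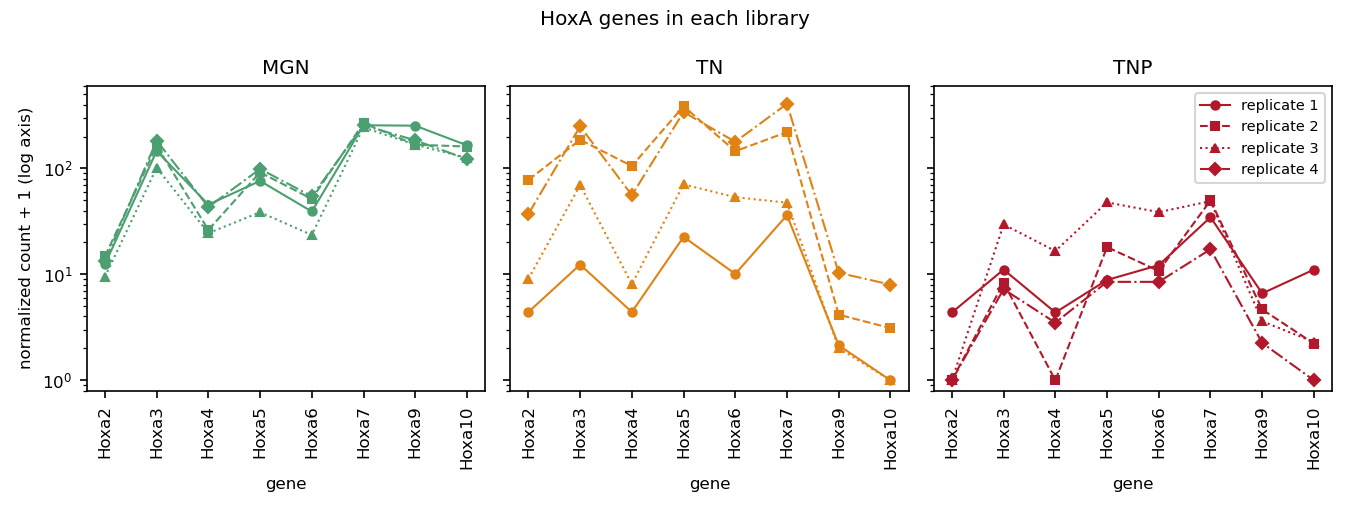
Lines join the normalized counts (plus 1, log axis) of Hoxa2 to Hoxa10 in each library of MGN, TN and TNP, with 1 symbol per replicate. In TN the lines are widely spaced from Hoxa2 to Hoxa7 and drop together at Hoxa9 and Hoxa10, which lie between 0 and 9.34 normalized counts.

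The same question for fibroblasts with mutant p53 is answered by TNP against MGNP. There 22 of the 23 tested members fell and 0 rose, where 24% of 17880 genes fell and 14.7% rose. TNP replicates 1 and 2, which carry the same number in their library names, entered as separate samples. Only 3 members reached 10 normalized counts in every TNP library, so most of the 23 passed the filter through the glands, where they are high, and the count is not one over all 39. The groups did not overlap for 21 members, beside 52.6% of all genes. The median log2 difference was -3.45 with and without the 4 members at the floor at their bounds, and -0.07 over all genes. Among the markers, 9 of 9 of white adipocytes, 15 of 16 of skeletal muscle, 7 of 8 of basal epithelium, 6 of 6 of endothelium and 4 of 8 of fibroblasts fell as well, and their part in the HOX differences was not tested. All 7 tested HoxA genes fell here, including Hoxa3 to Hoxa7. Hoxb2, a hindbrain gene and the member of largest log2 SD in TNP among those with a mean of at least 10 normalized counts, was the member that was not called (-1.60, SE 0.66, adjusted p = 0.068), and TNP replicate 4, with 83.7 normalized counts against 7.85, 18.3 and 11.7, lay among the glands at 48.6, 72.8, 45.5 and 89.1. Without that tumor, Hoxb2 was called lower (-2.27, adjusted p = 0.00351). Of its exon bases, 27.3% lie opposite the non-coding gene Hoxb3os.

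Hoxc5 fell furthest by the fitted value. It had 143, 248, 112 and 406 normalized counts in MGNP and 4.49, 7.32, 1.30 and 3.75 in TNP (-5.41, SE 0.52, adjusted p = 7.87e-05). Hoxd4 had 140, 136, 76.9 and 89.1 in MGNP and 4.49, 0, 2.598 and 2.50 in TNP (-5.23, SE 0.54, adjusted p = 0.000102), but it shares 52.3% of its exon bases with Hoxd3 and a further gene on the same strand, so its reads are uncertain. Hoxd9, 1 of the group 9 genes used in pregnancy, had 159, 174, 52.0 and 159 in MGNP and at most 3 reads in every TNP library, and was at least 37.1-fold lower. Each of the 3 genes was lower in every tumor than in every gland.

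Hoxa5 and Hoxa6 fell less than Hoxc5, Hoxd4 and Hoxd9, and Hoxa5 overlapped between the groups. Hoxb7 (-1.69) and Hoxb3 (-2.63), of another cluster, also fell by less. Hoxa5 had 77.3, 221, 39.0 and 279 normalized counts in MGNP and 7.85, 17.1, 46.8 and 7.49 in TNP (-2.89, SE 0.76, adjusted p = 0.0114), with TNP replicate 3 above MGNP replicate 3. Hoxa6 had 42.0, 61.4, 44.4 and 59.4 in MGNP and 11.2, 9.76, 37.7 and 7.49 in TNP (-1.85, SE 0.48, adjusted p = 0.0107). Hoxd8 went from 677, 1165, 275 and 956 to 29.2, 35.4, 31.2 and 37.5 (-4.31, SE 0.42, adjusted p = 8.19e-05). The score of the 16 skeletal muscle markers, their mean log2(normalized count + 1), was 3.70 to 8.55 in TNP and 9.07 to 16.9 in MGNP. The groups did not overlap in it, so a fit with it as a covariate cannot tell muscle from group. In that fit, 15 of the 23 still fell and 7 lost the call. Of these, Hoxb9 (-3.09 to -3.07), Hoxb7 (-1.69 to -1.63) and Hoxb3 (-2.63 to -2.25) differed by about as much as before. The difference was smaller for Hoxa5 (-2.89 to -0.60), Hoxa4 (-3.45 to -1.65), Hoxb4 (-3.24 to -2.39) and Hoxa6 (-1.85 to -1.31). With MGNP replicates 2 and 4 left out, a choice made after seeing the data, 20 fell, and Hoxa4, Hoxa5 and Hoxa6 were lost while Hoxc10 was gained.

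Tumors with mutant and wild-type p53 in fibroblasts were compared directly in TNP against TN. Of the 8 members that passed the filter, limma and edgeR called 0 in either direction, where 0.0361% of 16638 genes rose and 0.00601% fell by limma. For 0 of the 8 were the groups apart with no overlap, beside 4.21% of all genes. The share of all genes with an unadjusted limma p below 0.05 was not determined, and 3 members had one. These were Hoxa3 (log2 difference -2.75, SE 0.92, adjusted p = 0.669), Hoxa5 (-2.92, SE 0.96, adjusted p = 0.669) and Hoxa6 (-2.09, SE 0.91, adjusted p = 0.683). TNP replicates 1 to 4 had 10.1, 7.32, 28.6 and 6.24 normalized counts of Hoxa3, a gene of the pharyngeal arches, and TN had 11.4, 185, 68.7 and 248.6, so TN replicate 1 lay within the TNP range. DESeq2 on the recovered reads called Hoxa3 (-3.31, adjusted p = 0.0195) and Hoxa5 (-3.38, adjusted p = 0.0227) lower in TNP, and the share of all genes it called was not determined. TNP replicates 1 and 2 carry the same number in their library names, and averaging them as 1 sample left 0 calls.

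Whether the step from gland to tumor differed between the genotypes was tested with an interaction of the 16 samples without MGWT. All TN, TNP and MGNP mice carried Fsp-Cre, but most MGN mice did not. Cre in the glands and the mutant allele in fibroblasts can therefore hardly be told apart in this interaction. By limma and by edgeR 0 of 28 members were called, where limma called 0% of 19367 genes, and the smallest adjusted limma p was 0.491. An unadjusted limma p below 0.05 was found for 6 members, and the share of all genes with one was not determined. Among the 6 were Hoxa2, Hoxa3, Hoxa5 and Hoxa6, with a difference of -3.63 (SE 1.23, adjusted p = 0.518) for Hoxa5, and Hoxc10, with 4.0 (SE 1.25, adjusted p = 0.491). DESeq2 called 2 members, Hoxa5 among them (-4.40, adjusted p = 0.011), and the share of all genes it called was not determined. The calls of Hoxa3 to Hoxa7 in TNP against MGNP and their absence in TN against MGN are therefore not shown by limma to differ.

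Glands of tumor-bearing mice were set beside wild type glands in MGN against MGWT. Of 27 members tested, 13 rose and 3 fell, where 19.1% of 19017 genes rose and 17.9% fell. The groups did not overlap for 22 members, against 61.3% of all genes. All 6 tested HoxC genes rose, as did 5 of 9 HoxA and 2 of 4 HoxD genes, whereas 3 of 8 HoxB genes fell and 0 rose. Within HoxB the uncalled Hoxb5, Hoxb6 and Hoxb7 had positive differences (0.47, 0.41 and 0.89), and within HoxD the uncalled Hoxd9 a negative one (-0.51). The median log2 difference was 2.26 for HoxC, 1.57 for HoxA, 1.01 for HoxD and -0.98 for HoxB, beside 0.02 over all genes. The fat and luminal markers given above differ between the same libraries, and tissue make-up and genotype cannot be told apart in this comparison.

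Hoxc5 rose most, from 20.9, 26.4 and 26.4 normalized counts in MGWT replicates 1 to 3 to 238, 324, 211 and 241 in MGN (log2 difference 3.31, SE 0.22, adjusted p = 1.25e-05). Hoxc8 rose from 45.6, 64.9 and 66.1 to 638, 620, 516 and 488 (3.25, SE 0.19, adjusted p = 7.72e-06), and Hoxc9, a gene of white fat, from 7.68, 20.01 and 18.6 to 120, 135, 87.3 and 103 (2.86, SE 0.36, adjusted p = 0.000285). Every MGN library lay above every MGWT library in all 3. Hoxb3 fell from 497, 436 and 397 to 82.8, 108, 139 and 106 (-2.03, SE 0.20, adjusted p = 9.36e-05), but 52.9% of its exon bases lie opposite Hoxb3os. Hoxb3os also lies opposite 27.3% of the exon bases of Hoxb2. Hoxb2 fell from 212, 192 and 156 to 72.6, 82.8, 80.8 and 70.03 (-1.27, SE 0.19, adjusted p = 0.000703), and Hoxb9 from 52.9, 59.1 and 67.7 to 22.9, 39.1, 31.0 and 19.6 (-1.10, SE 0.30, adjusted p = 0.0127). Hoxb3 and Hoxb2 lay lower in every MGN library than in any MGWT library, as did Hoxb9, whose call was lost without MGN replicate 4 or MGWT replicate 3, with a pseudocount of 5, in the fit of all 5 groups and with the replicate block (-0.95). Hoxb4 also lay lower in every MGN library, at a log2 difference of -0.96 that missed the 2-fold threshold (adjusted p = 0.00472), and by the adjusted p alone 59.1% of all genes passed. With all 5 groups in 1 fit, 8 rose and 1 fell, with the share of all genes not determined.

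In MGNP against MGWT, 8 of 26 members rose and 5 fell, where 16.4% of 19065 genes rose and 16.2% fell, and 16 did not overlap beside 54.4% of all genes. MGNP and MGN were set against the same MGWT libraries, so their differences are not independent of each other. Hoxc5 rose again, to 143, 248, 112 and 406 normalized counts (log2 difference 2.99, SE 0.45, adjusted p = 0.00206). Hoxa4, a gene of the neck vertebrae, went from 4.27, 4.39 and 7.75 to 24.8, 51.4, 18.4 and 136 (2.79, SE 0.68, adjusted p = 0.013), and Hoxa7 from 39.2, 71.3 and 47.0 to 199, 201.3, 190.6 and 341 (2.13, SE 0.31, adjusted p = 0.00184). Both lay above MGWT in every MGNP library.

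The 5 members that fell in MGNP were Hoxb2, Hoxb3, Hoxb4, Hoxb8 and Hoxb9. Hoxb3 had 106, 78.5, 98.6 and 110 (-2.17, SE 0.20, adjusted p = 0.00032) and Hoxb2 48.6, 72.8, 45.5 and 89.1 (-1.57, SE 0.30, adjusted p = 0.00526), each below every MGWT library. Both genes lie in part opposite Hoxb3os, as given above. Hoxb8, known from the thoracic and lumbar body, had 20.9, 31.2 and 25.8 in MGWT and 2.86, 9.99, 0 and 7.75 in MGNP (-2.60, SE 0.81, adjusted p = 0.0334), and its call was lost without MGNP replicate 1 or any 1 of the MGWT libraries. Without MGWT replicate 2 or 3, 3 members fell. The muscle score was 3.67 to 3.89 in MGWT and 9.07 to 16.9 in MGNP, so a fit with it as a covariate cannot tell muscle from group. In that fit 0 members rose and 5 fell, Hoxd9 in the place of Hoxb4. Without MGNP replicates 2 and 4, a choice made after seeing the data, 9 rose and 5 fell.

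Lesion-free glands with and without the mutant allele in fibroblasts were compared in MGNP against MGN. All MGNP mice carried Fsp-Cre, but of MGN only replicate 1 did, so Cre itself and mutant p53 can hardly be told apart here. By limma and by edgeR 0 of 28 members were called in either direction, where limma called 0% of 18563 genes. The share of all genes with an unadjusted limma p below 0.05 was not determined, and 5 members had one. All 5 were lower in MGNP and all were central or posterior genes of HoxA and HoxC, Hoxa9, Hoxa10, Hoxc8, Hoxc9 and Hoxc10. The groups did not overlap for 6 members, these 5 and Hoxb8, or 6 of 28 beside 6.21% of all genes. Hoxc10, the member of largest log2 SD in MGNP at a mean of at least 10 normalized counts, had 21.9, 2.86, 40.1 and 1.29 normalized counts in MGNP and 79.8 to 141 in MGN (log2 difference -3.40, SE 0.88, adjusted p = 0.327). Hoxa10 had 41.0, 67.1, 74.7 and 40.0 in MGNP and 122 to 164 in MGN (-1.38, SE 0.27, adjusted p = 0.305), and Hoxc9 28.6, 31.4, 57.4 and 14.2 against 87.3 to 135 (-1.87, SE 0.40, adjusted p = 0.305). For each of the 6 the exact permutation test gave 0.0286, the smallest p that 4 against 4 libraries allow. Groups that do not overlap always give this value, so it adds nothing to the lack of overlap by which the 6 were picked.

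Hoxc8 had 103, 207, 260 and 263 normalized counts in MGNP and 488 to 638 in MGN (-1.52, SE 0.30, adjusted p = 0.305), and Hoxa9 70.6, 131, 81.2 and 99.4 against 166 to 252 (-1.02, SE 0.25, adjusted p = 0.319). Hoxd8 differed the other way in 3 of 4 glands, with 677, 1165, 275 and 956 against 301 to 427 (0.87, SE 0.41, adjusted p = 0.516). Replicate 3, the MGNP gland below the MGN range for Hoxd8, was the one with the fewest skeletal muscle marker counts (28776, against 798766, 6399620 and 3717780). Without it Hoxd8 was called higher (1.30, adjusted p = 0.034), and Hoxa10, Hoxc9 and Hoxc10 lower (-1.54, -2.18 and -4.11, adjusted p = 0.0405, 0.0241 and 0.0442). DESeq2 called Hoxa10, Hoxc8, Hoxc9 and Hoxc10 lower with all libraries. The share of all genes called by DESeq2, or by limma without replicate 3, was not determined, so these calls cannot be set against it. Without the 2 glands richest in muscle, replicates 2 and 4, limma called 0. With the muscle score as a covariate 0 members were called, and the difference of Hoxc10 went from -3.40 to -1.42 and that of Hoxc9 from -1.87 to -1.20. Those of Hoxa9, Hoxa10 and Hoxc8 were -1.32, -1.24 and -1.54. Median log2 differences of the markers were -1.13 for fibroblasts, -0.83 for white adipocytes and 6.08 for skeletal muscle, with 0 called in each list. The part of fibroblasts and adipocytes in the HOX differences was not tested.

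**Figure D5:**
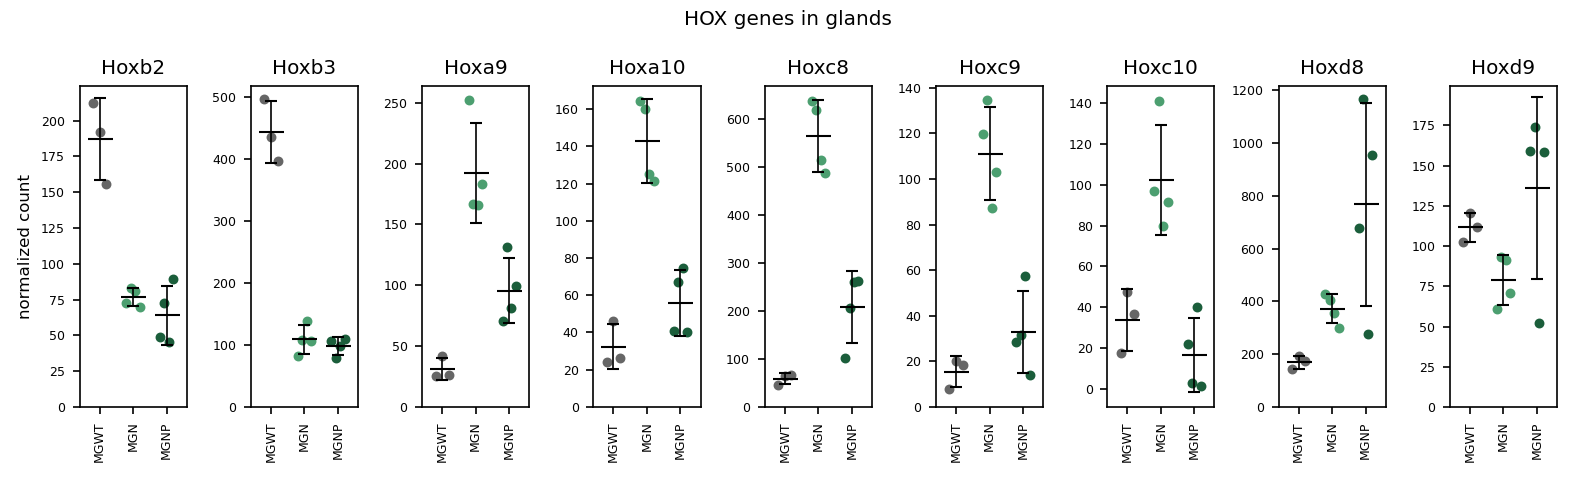
Points give the normalized counts of 9 HOX genes in the gland libraries of MGWT (n = 3), MGN and MGNP (n = 4 each), with the mean and 1 SD, and each panel has its own axis. Hoxb2 and Hoxb3 are highest in MGWT, Hoxa9, Hoxa10 and Hoxc8 to Hoxc10 in MGN, and Hoxd8 spreads from 275 to 1165 in MGNP.

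TALE proteins (PBX, MEIS and PKNOX) bind DNA together with HOX proteins. Of 9 TALE genes tested in TN against MGN, 3 fell and 0 rose, beside 22.3% lower and 12.8% higher of all genes, with a median log2 difference of -0.65. Meis2 fell by 4.63 on the log2 scale (SE 0.41, adjusted p = 9.68e-05), from 502 ± 69.6 to 22.1 ± 15.2 normalized counts (SD, n = 4 each), and Meis1 and Pknox2 by 1.82 and 1.46. In TNP against MGNP the called were again Meis2 (-4.44), Pknox2 (-3.06) and Meis1 (-1.31), 3 of 8 beside 24% of all genes. In MGN against MGWT, 1 of 9 rose, Meis2 (1.28), and 2 fell, Pknox2 (-1.55) among them, beside 19.1% higher and 17.9% lower of all genes.

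Of the other factors of body position and limb level, most of those tested were lower in tumors. Of 13 listed, 5 were tested in TN against MGN, and 4 fell while 1 rose, beside 22.3% lower and 12.8% higher of all genes. Tbx5 and Emx2 averaged 1.81 and 5.72 normalized counts in TN and 41.1 and 74.0 in MGN. They passed the filter through the glands, so the count is not one over all 13. Tbx5, which marks the forelimb level, fell by 4.15 on the log2 scale (adjusted p = 0.00055), Emx2 by 4.06, Shox2 by 3.79 and En1 by 2.00, and Tbx15 rose (1.25, adjusted p = 0.0322). In TNP against MGNP, Tbx5, Emx2, Shox2 and En1 fell (4 of 5, with 0 rising), beside 24% lower of all genes. In MGN against MGWT all 5 rose, and in MGNP against MGWT 2 of 6 did, Tbx15 and Tbx5, beside 19.1% and 16.4% of all genes.

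Polycomb and Trithorax proteins keep HOX genes silent or active. Of 19 Polycomb genes, 1 fell in TN against MGN and 1 in TNP against MGNP, Cbx7 both times (-1.28 and -1.33), and the medians over the 19 were 0.26 and 0.02. Of 11 Trithorax and H3K27 demethylase genes, Dpy30 rose in TN (1.04) and Dot1l fell in TNP (-1.08). Of all genes, 22.3% fell in TN and 24% in TNP. Against MGWT, in MGN 5 of 19 Polycomb genes fell, where 17.9% of all genes did, led by Pcgf2 (-2.65), and 4 of the 11 fell while 1 rose, with Kdm6b, which removes the Polycomb mark, at 798 ± 170 normalized counts in MGN (SD, n = 4) and 8274 ± 1646 in MGWT (SD, n = 3; -3.38, adjusted p = 6.1e-06). In MGNP 4 of 19 Polycomb genes fell, where 16.2% of all genes did, and 4 of the 11 fell while 1 rose.

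Retinoic acid is an upstream regulator of anterior HOX genes in the embryo. Of 17 genes of its pathway tested in TN against MGN, 6 fell and 1 rose, beside 22.3% lower and 12.8% higher of all genes, among them Aldh1a1, which makes retinoic acid (-4.45, adjusted p = 0.000228), and Crabp1 (-4.15). In TNP against MGNP 5 of 17 fell, beside 24% of all genes, with Aldh1a1 (-5.84) and the receptor Rxrg (-5.57) lowest, and Crabp2 rose (3.77). Against MGWT 5 rose and 4 fell of 17 in MGN, beside 19.1% higher and 17.9% lower of all genes. In MGNP 4 rose and 4 fell of 16, beside 16.4% higher and 16.2% lower of all genes. None of the TALE, Polycomb, Trithorax, retinoic acid or position genes was called in MGNP against MGN or in TNP against TN by limma.

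Non-coding genes of the clusters were mostly below the filter. Of 48 such genes in the table, 3 were tested in TN against MGN, where Hoxb3os (-5.00, adjusted p = 0.000269) and Hoxd3os1 (-3.65, adjusted p = 0.00101) fell, and 3 of 3 fell in TNP against MGNP. Of all genes, 22.3% and 24% fell in these comparisons. Hoxb3os averaged 2.35 normalized counts in TN and 84.8 in MGN. Hoxd3os1 averaged 1.29 in TN and 22.4 in MGN, and 1.23 in TNP and 47.0 in MGNP. Such genes passed the filter through the glands, where they are high, so these counts are not counts over all 48. In MGN against MGWT 2 of 5 rose and in MGNP against MGWT 3 of 6, Hoxd3os1 in both (1.70 and 2.54), beside 19.1% and 16.4% of all genes. Reads of these genes and of the HOX genes opposite them cannot be told apart if strand was not used in counting.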

How the data were processed

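RNA-seq values of 19 samples were analysed. The signal deposited by the authors is 1 table of normalized counts for 46078 genes, that is, reads per gene divided by a size factor per library. By the sample records and the paper, reads were aligned to GRCm38 with TopHat2 2.1.1 and Bowtie2. The counting tool, its annotation and its use of strand are not given in the sources used here, and the records name a total RNA kit where the paper names an mRNA kit. Whole reads were recovered by dividing by each library's smallest value above 0, and all values came out whole within 0.05 reads. Size factors were 0.701 to 1.06, and 1.94 to 2.34 in MGWT. Intervals, floors and p-values cover the spread between these libraries and counting error only.

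Symbols, positions and exon lengths came from GENCODE vM21, which matched 98.2% of identifiers and left 849 unmatched. Genes with at least 10 normalized counts in as many samples as the smaller group were tested with limma 3.58.1 (lmFit, eBayes with trend) on log2(normalized count + 1), using the 2 groups compared, and adjusted over all genes tested. Alternatives were pseudocounts of 0.5 and 5, no filter, a mean of at least 50, TMM scaling, edgeR 4.0.16 and DESeq2 1.42.0 on the recovered reads, no fold threshold, 1 fit of 5 groups, a replicate block, each sample left out, TNP replicates 1 and 2 averaged, and a muscle covariate. The fit was tested on simulated data. A member with at most 3 reads in every library of a group was at the floor. Levels between genes were compared per kb of exon.

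Members named with values were the 8 of highest level per kb, the 3 called members that rose and the 3 that fell most in each comparison, and the member of largest SD of log2 values in each group of 4 among those with a mean of at least 10 normalized counts, which gave 20 genes. Of these 1, and 1 gene of another list, are not reported here. In other lists up to 4 called genes of largest change were named. Further members are named where a count or a library singled them out, after their values were seen. Members and lists were chosen with earlier results of these data known. Promoters are RefSeq sequences of 22 members.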

Additional observations from a re-analysis of the deposited data

Results flagged for a closer look

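In 58 groups of 4 libraries the highest or lowest library was compared with the others, and 3 stood apart by Dixon's criterion, about the number that chance gives at 1 in 20. Hoxa7 was 341 normalized counts in MGNP replicate 4, against 190.6 to 201.3 in the other 3 glands. Hoxb4 was 23.2 in TN replicate 3, against 5.68 to 6.32 in the other 3 tumors. Hoxd9 was 52.0 in MGNP replicate 3, against 159 to 174 in the other 3 glands.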

How the results depend on the processing

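Replicate numbers did not pair samples, since deviations of same-numbered samples correlated at -0.253 to 0.329 and 3 of 22 pairs were over 0.1. With the replicate block, 20 members fell in TN against MGN and 23 in TNP against MGNP, 13 rose and 3 fell in MGN against MGWT (Hoxb4 in the place of Hoxb9), 8 rose and 4 fell in MGNP against MGWT, and 0 were called in the other comparisons. At a mean of at least 50 normalized counts, which tests fewer genes, 11 fell in TN, 11 in TNP and 3 in MGNP against MGWT. That filter also tests fewer members, so its counts cannot be set against the main ones. The share of all genes called was not determined for the replicate block, for that filter or for the fit of all 5 groups. In MGN against MGWT, 5 fell with TMM scaling and 5 with no fold threshold, and 8 rose and 1 fell with all 5 groups in 1 fit. DESeq2 called 4 lower in MGNP against MGN, 2 in TNP against TN and 2 in the interaction, with the share of all genes not determined. With the muscle covariate 0 rose in MGNP against MGWT, where Hoxc4 (-0.57), Hoxc6 (-0.23) and Hoxd8 (-0.63) changed sign. The muscle score did not overlap between these groups, so that fit cannot tell muscle from group. In TN against MGN the uncalled Hoxa4 changed sign with edgeR (0.31) and DESeq2 (0.33) and without TN replicate 1, as did Hoxa3 without TN replicate 1 and Hoxa2 without TN replicate 2. Over single left-out libraries they ran from -1.42 to 0.11 (Hoxa4), -1.42 to 0.028 (Hoxa3) and -0.11 to 1.27 (Hoxa2). The cause of these changes was not tested. Leaving out 1 library at a time gave 0 to 2 higher and 20 to 21 lower in TN against MGN, 22 to 23 lower in TNP against MGNP, 13 to 14 higher and 3 to 4 lower in MGN against MGWT, 7 to 10 higher and 3 to 5 lower in MGNP against MGWT, 0 to 1 higher and 0 to 3 lower in MGNP against MGN, 0 to 1 lower in TNP against TN, and 0 in the interaction. At these depths members under 10 reads were not comparable.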
